A study of Mus musculus with 6 samples.

Results

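The AU-rich RNA binding and decay proteins described here are 8 genes: the tristetraprolin family genes Zfp36, Zfp36l1 and Zfp36l2, and Elavl1 (HuR), Khsrp (KSRP), Hnrnpd (AUF1), Tia1 and Tial1 (TIAR). They were chosen as binders of AU-rich elements on which the P38-MK2 axis acts, and were found by the gene name that the array files give to non-control probes. The 8 genes had 13 probes, of 34761 gene names and 55681 probes on the array. RNA came from CD71highTer119+ erythroblasts sorted from the bone marrow (BM) of 3 P38α+/- (Mx1-Cre/P38α fl/+) and 3 P38α-/- (Mx1-Cre/P38α fl/fl) mice on a C57Bl/6 background. Every mouse, control or not, carried Mx1-Cre and at least 1 floxed P38α allele. The study used mice of both sexes, 6 to 8 weeks old when PolyIC (300 µg, 3 injections) induced Cre. They rested for 6 weeks, received phenylhydrazine (PHZ, 100 mg per kg, once), which lyses red cells, and were sampled on day 4 of recovery. Mx1-Cre is driven by an interferon-responsive promoter and deletes in many tissues, so the deletion was not confined to erythroid cells, and the controls had themselves lost 1 copy of P38α. Each mouse gave 1 array.

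AU-rich elements are stretches of A and U, often with repeated AUUUA, in the untranslated ends of short-lived mRNAs such as those of cytokines and early response genes. Tristetraprolin (TTP, the product of Zfp36) and its relatives bind them through CCCH zinc fingers and bring in the CCR4-NOT deadenylase, after which the message is decapped and degraded. MK2, a kinase activated by P38α, phosphorylates TTP and weakens this recruitment, while HuR protects many of the same messages. The comparison asked whether the mRNA levels of these binders, of the decay machinery and of AU-rich messages differed between the genotypes. An array reads mRNA, and phosphorylation of the proteins was not measured here.

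The log2 signal given below is the scanner's log2 value less the array's 75th percentile, taken over the 15150 probes that all 6 arrays detected, where detected means marked by the scanner software as well above background. They compare arrays for 1 probe and not 1 probe with another. Differences are P38α-/- minus P38α+/-. limma tested every probe detected in all 3 mice of either genotype. A call needed both a 2-fold difference and a Benjamini-Hochberg adjusted p no higher than 0.05. The leading probe of a gene is its tested probe (failing that, any probe) with the highest mean.

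Before the members, the labels and the cells were checked. The brighter probe of Mapk14, which encodes P38α, had a log2 signal of 0.33, 0.59 and 0.61 in the P38α+/- arrays and of 0.77, 1.19 and 1.21 in the arrays labelled P38α-/-, so it was not lower there (log2 difference 0.54, 95% interval 0.09 to 1.00, adjusted p = 0.185 by limma). A second probe read -3.78, -3.37 and -3.38 against -4.44, -2.86 and -3.20, with P38α-/- replicate 1 the lowest (log2 difference 0.01, 95% interval -0.99 to 1.01). The files do not state which sequence was deleted, so these probes may lie outside it, and the protein was not measured here. The P38α-/- arrays are named below by their label. Between 36.8% and 53.1% of probes were well above background on the P38α+/- arrays and between 28.9% and 35.9% on the P38α-/- arrays. All 14 erythroid markers were tested and had a median difference of -0.001, with a summed linear signal of 938 to 1480 against 926 to 1510. Of 15 neutrophil markers, 13 were lower in P38α-/- without overlap of the genotypes, where 19.8% of the leading probes of all tested genes were. Their summed signal was 186, 296 and 113 against 83.5, 84.5 and 60.2, and none was at background on all arrays. Summed B cell markers ran from 0.175 to 1.79 against 0.0779 to 0.237, with 4 of 10 tested and 2 of them lower without overlap. Monocyte or macrophage markers ran from 1.41 to 3.09 against 0.885 to 1.28 (7 of 14 tested, 2 lower without overlap; Mrc1, Siglec1 and Cd163 at background on every array), and T or NK cell markers from 0.768 to 2.74 against 0.573 to 0.729 (4 of 10 tested, 2 lower without overlap; Cd8a and Gzmb at background). Megakaryocyte or platelet markers overlapped in their sums, from 2.19 to 3.11 against 2.60 to 3.52, with 5 of 10 tested, 1 of them lower without overlap and a median log2 difference of 0.33. With 4 to 7 genes tested, 1 or 2 genes without overlap in a list are little to set against the 19.8%. Their part in the results below was not tested. In sorted bulk RNA, fewer cells of a type and less RNA per cell cannot be told apart.

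The sequence these proteins read can be seen in some of the array's own probes. The TTP family is known for the nonamer UUAUUUAUU and its core UAUUUAU. The windows below are read 5′ to 3′ from the probes, which carry the sense of the mRNA, with the nonamer or its core in capitals. They show the motif in the probe of Zfp36 itself and in probes of 4 genes of the list of AU-rich transcripts. Where these probes lie within the messages was not determined.

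Zfp36: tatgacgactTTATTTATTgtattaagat
Dusp1: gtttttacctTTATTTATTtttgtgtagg
Ccne1: gatttcagccTTATTTATTgcttcaaaac
Ier3: tgtaacacagaTATTTATtacgatttata
Pim3: ccacggtctctTATTTATggtgtgatcac

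By the mm9 positions of the array files, these windows lie at chr7:29161970-29161998 (minus strand) for Zfp36, chr7:38885579-38885607 (minus) for Ccne1, chr17:35959531-35959559 (plus) for Ier3 and chr15:88695651-88695679 (plus) for Pim3. For Dusp1, on chromosome 17, the file's range is shorter than the probe and no window position was derived. The Ccne1 window is from a second probe of that gene and not its leading one.

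No member was called. Of the 8 genes, 7 had a tested probe (10 of the 13 probes), and 0 of the 7 leading probes passed, where 0.178% of the leading probes of all 14025 tested genes did. In the main fit, which is unpaired, none reached an unadjusted p of 0.05 by limma, and none did by the methods' t-test. Adjusted p-values of the 10 probes in that fit ran from 0.254 to 0.957 by limma. With the replicate number as a block, unadjusted p-values by limma were 0.011 for Zfp36l2 and 0.019 for Tia1. Some other alternatives also gave Zfp36l2, Tia1 or Hnrnpd an unadjusted p under 0.05 by limma. The lowest adjusted p of any member over the alternatives was 0.097 by limma. The leading probes of Hnrnpd and Tia1 were lower in P38α-/- without overlap, 2 of 7, beside 19.8% of all tested genes, and none was higher without overlap, beside 7.39%. Tia1 met the filter of the test through the P38α+/- arrays alone, so its p-values and lack of overlap are not support for a difference. The median log2 difference of the 7 was -0.29, and that of all tested probes was -0.16. The plots of signal by array and of the fitted differences show each member.

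**Figure D1:**
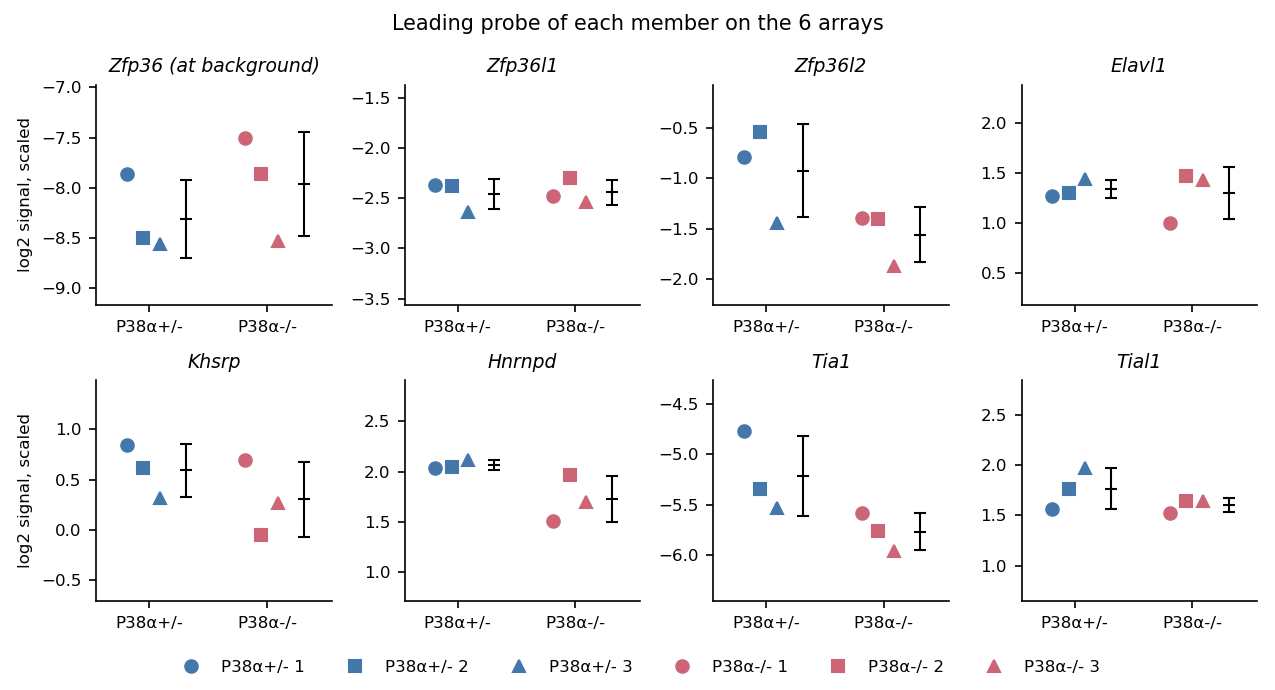
Log2 signal (scaled to each array's 75th percentile) of the leading probe of each member, 1 point per mouse with the symbol giving the replicate number, and bars giving mean ± SD of 3 arrays. Each panel spans the same range of 2.2 log2 units; levels are not comparable between panels. Hnrnpd and Tia1 are the tested members whose genotypes do not overlap. Tia1 met the filter of the test through the P38α+/- arrays alone.

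Zfp36 itself, the tristetraprolin gene, was not measurable. Its 1 probe (chr7:29161940-29161999) was at background on every array, with log2 signals of -7.86, -8.50 and -8.56 in P38α+/- and -7.50, -7.86 and -8.53 in P38α-/-. These values lie at background in both genotypes, so they give no fold and no order. The probe is the one shown above with the nonamer. A and T make up 78.3% of its bases, and of the 250 probes on the array at least as rich in A and T, 1.6% were tested and 88% were well above background on no array, against 33.3% and 42% of all probes. Whether the message or this probe was the limit was not tested.

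Zfp36l1, a TTP relative (TIS11b) with the same mode of decay, was well above background on all 6 arrays (chr12:81209022-81209081). Its log2 signal was -2.37, -2.38 and -2.63 in P38α+/- and -2.48, -2.30 and -2.54 in P38α-/-. The genotypes interleave. The log2 difference was 0.02 (SE 0.16, adjusted p = 0.956 by limma), with a 95% interval from 0.778-fold to 1.32-fold, so a 2-fold difference in either direction lies outside it.

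Zfp36l2, the third family member and known as a brake on the differentiation of early erythroid progenitors, had the largest difference among the 7 leading probes in this fit (chr17:84583415-84583474). Its log2 signal was -0.78, -0.54 and -1.44 in P38α+/- and -1.40, -1.41 and -1.87 in P38α-/-. The genotypes overlap, because P38α+/- replicate 3 lies just below P38α-/- replicates 1 and 2, yet each P38α-/- array was below the P38α+/- array of the same number, by 0.62, 0.87 and 0.43. The log2 difference was -0.64 (SE 0.28, 95% interval -1.31 to 0.04, adjusted p = 0.256 by limma), and it was 0.48 below that of the median probe. With the replicate number as a block the adjusted p was 0.097 by limma, the lowest of its 16 alternatives, which ran up to 0.929. It was -0.48 on the slide that held both genotypes, without P38α-/- replicate 3, -0.90 without P38α+/- replicate 3, and -0.16 when arrays were scaled on all probes.

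The order of the arrays for Zfp36l2 can be set beside that of the neutrophil markers. P38α+/- replicate 2 was highest and replicate 1 next for both measures, P38α-/- replicate 3 was lowest for both, and the other 3 arrays lay between, in a different order: P38α+/- replicate 3 was the highest of them for the neutrophil markers (113 against 83.5 and 84.5) and the lowest for Zfp36l2. The part of neutrophil RNA in the Zfp36l2 values was not tested. Among 10127 tested genes with a name from the reference and values on every array, those whose leading probe followed Zfp36l2 most closely over the 6 arrays were Sytl1 (Pearson r = 0.999), Wdfy4 (0.999) and Cd93 (0.997). Their log2 differences were -0.90, -1.72 and -2.21. For Zfp36l1 they were Abcd3 (r = 0.995), Amz2 (0.987) and Mtfmt (0.985), with log2 differences of 0.03, 0.03 and 0.05. With 6 arrays and this many genes, values so close to 1 describe these arrays only. No such list was drawn for Zfp36, which was at background.

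**Figure D2:**
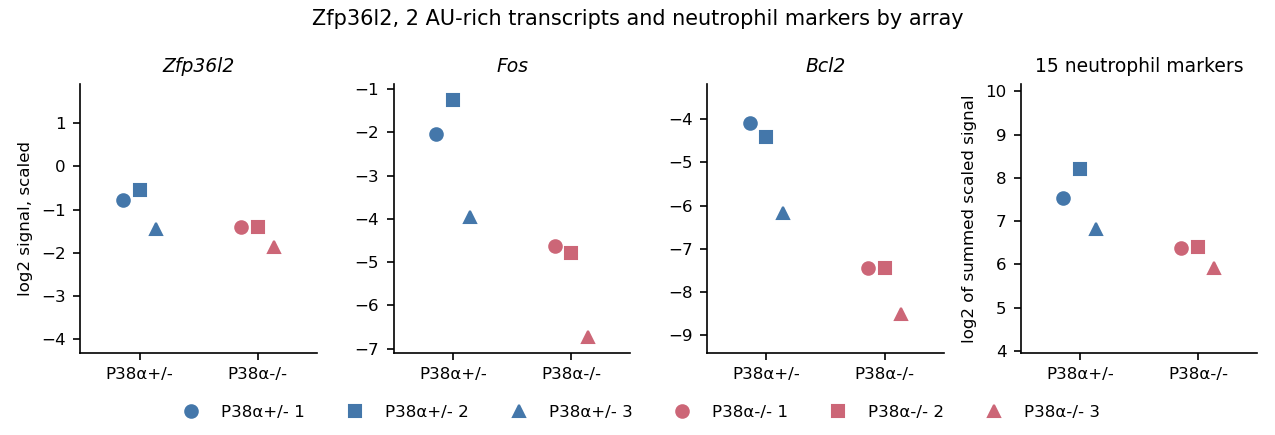
Log2 signal of Zfp36l2, Fos and Bcl2 and the log2 of the summed linear signal of 15 neutrophil markers, 1 point per mouse, with the symbol giving the replicate number; every panel spans 6.2 log2 units. In the P38α+/- group replicate 3 (triangle) is the lowest in all 4 panels, and in the P38α-/- group replicate 3 is again the lowest for Zfp36l2, Fos and the neutrophil markers. Fos was well above background on only 2 of the P38α-/- arrays. The P38α-/- points of Bcl2 are at background and have no order.

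Elavl1 encodes HuR, which binds the same elements and stabilises messages. Its leading probe (chr8:4288411-4288470) had a log2 signal of 1.27, 1.30 and 1.44 in P38α+/- and 1.00, 1.47 and 1.43 in P38α-/-. Apart from P38α-/- replicate 1 the arrays lie close together. The log2 difference was -0.04 (SE 0.18, adjusted p = 0.93 by limma) with a 95% interval from 0.719-fold to 1.32-fold. The sign was not stable, with 0.11 when P38α-/- replicate 1 was left out. A second probe differed by 0.17 (95% interval 0.877-fold to 1.43-fold), also without passing the test.

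Khsrp encodes KSRP, a KH-domain protein that P38 phosphorylates and that promotes decay. Its leading probe (chr17:57160973-57161032) had a log2 signal of 0.84, 0.61 and 0.32 in P38α+/- and 0.69, -0.06 and 0.27 in P38α-/-, with overlap. The log2 difference was -0.29 (SE 0.25, 95% interval -0.88 to 0.31, adjusted p = 0.544 by limma), and 0.13 below that of the median probe. Its second probe, dimmer and well above background on 5 of 6 arrays, differed by -0.07 with a 95% interval from 0.387-fold to 2.34-fold, too wide to limit a 2-fold change.

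Hnrnpd encodes AUF1, whose isoforms mostly promote decay. Its 1 probe (chr5:100390181-100390240) had a log2 signal of 2.04, 2.04 and 2.12 in P38α+/- and 1.51, 1.97 and 1.70 in P38α-/-. All 3 P38α-/- arrays lie below all 3 P38α+/- arrays, replicate 2 by the least. The log2 difference was -0.34 (SE 0.17, 95% interval -0.75 to 0.07, adjusted p = 0.304 by limma), and the exact two-sided permutation p was 0.10, the smallest that 3 arrays against 3 allow. The direction depended on the scaling: with the percentile of all probes, which moved the median of all tested probes from -0.16 to 0.32, the difference was 0.14. Relative to the median probe it was -0.18 under both scalings, which differ only by a shift of each array. Over all alternatives that value ran from -0.46 in the authors' normalized table to -0.07 without a filter on dim probes.

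Tia1 and Tial1 encode related proteins that bind AU-rich elements, silence translation and gather in stress granules. The leading Tia1 probe (chr6:86383073-86383132) had a log2 signal of -4.76, -5.35 and -5.53 in P38α+/- and -5.59, -5.76 and -5.96 in P38α-/-. No P38α-/- array reached the lowest P38α+/- array, although the gap was 0.05, and P38α-/- replicate 1 was not well above background. The probe thus met the filter of the test through the P38α+/- arrays alone, so its p-values and lack of overlap are not support for a difference. The log2 difference was -0.55 (SE 0.24, 95% interval -1.14 to 0.03, adjusted p = 0.254 by limma; exact two-sided permutation p = 0.10). It turned to 0.29 under quantile normalization and 0.27 in the authors' normalized table, and shrank to -0.13 with another background correction. Of its other probes, neither tested, 1 was well above background on P38α+/- replicate 3 alone, with log2 signals of -5.82, -6.43 and -6.34 against -7.26, -7.62 and -7.20, and 1 was at background on every array.

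The leading Tial1 probe (chr7:135585977-135586036) had a log2 signal of 1.56, 1.76 and 1.97 in P38α+/- and 1.52, 1.65 and 1.64 in P38α-/-. The genotypes overlap. Its log2 difference of -0.16 (SE 0.16, 95% interval 0.678-fold to 1.17-fold, adjusted p = 0.612 by limma) equalled that of the median probe to within 0.004. A second probe differed by -0.07 (95% interval 0.616-fold to 1.48-fold).

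**Figure D3:**
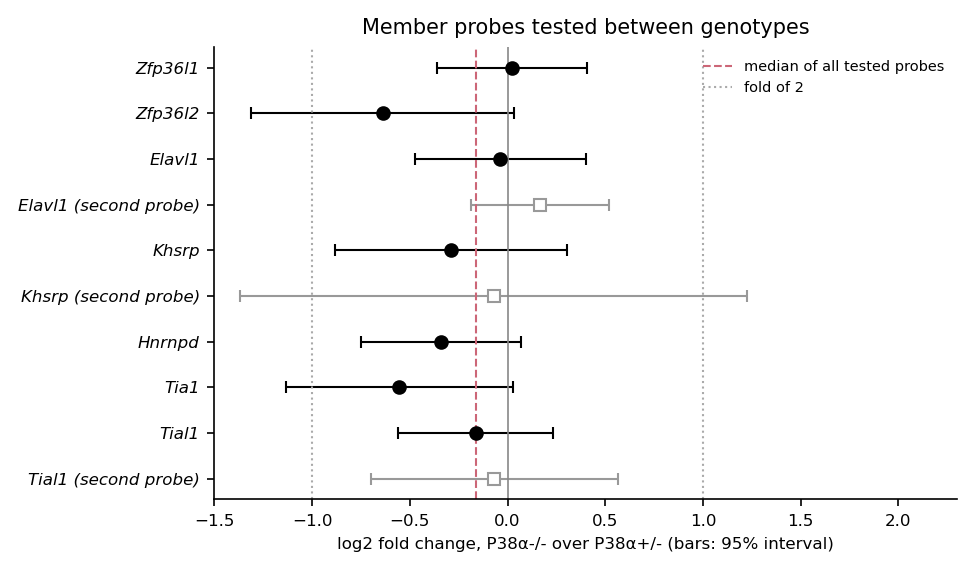
Fitted log2 difference of each tested member probe (circles: leading probe; open squares: second probe), with its 95% interval from limma. Every interval includes 0, and those of Zfp36l2, Tia1 and the second Khsrp probe reach a fold of 2 (dotted lines). The dashed line is the median of all tested probes at -0.16.

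**Figure D4:**
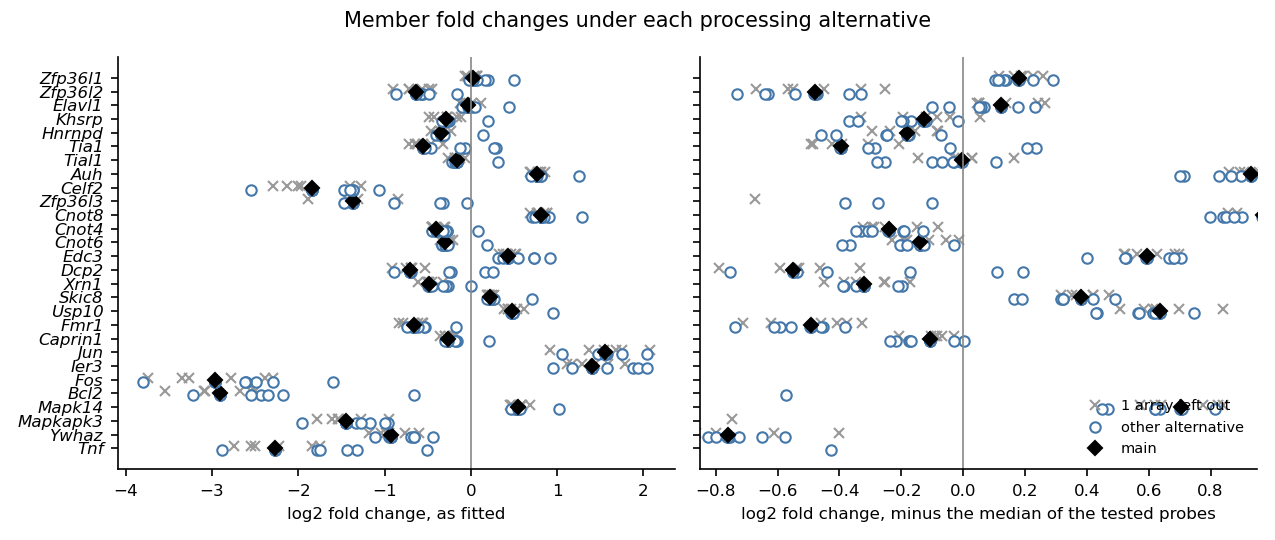
Log2 difference of the leading probe under the main processing (diamonds), with 1 array left out (crosses) and under other alternatives (circles), as fitted on the left and minus the median of the tested probes in the same fit on the right. The plot holds the 7 tested members and further genes of the lists, and points of some list genes lie outside the range of the right panel. Among the members, Zfp36l2 lies below 0 throughout, and Elavl1, Khsrp, Tia1 and Tial1 cross 0 in both panels.

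Lists of genes that act with the members were also described, and none of their 114 tested genes was called, beside the 0.178% of all tested genes. The counts below are to be read against the 19.8% of tested genes that were lower without overlap, the 7.39% that were higher, and the 20.0% with an unadjusted p of at most 0.05. In the list of other AU-rich and related binders, 22 of 30 genes were tested, of which 8 were lower and 1 higher without overlap (unadjusted p of at most 0.05 by limma in 6, lowest adjusted p = 0.104). The median log2 difference was -0.23, and that of the leading probes of all tested genes was -0.14. The 1 gene without overlap on the higher side was Auh, a mitochondrial enzyme that also binds AU-rich RNA. Its log2 signal was 0.31, 0.48 and 0.12 in P38α+/- and 1.01, 1.23 and 0.98 in P38α-/- (log2 difference 0.77, 95% interval 0.37 to 1.18, adjusted p = 0.104 by limma). Celf2, a CUG-binding relative with roles in splicing and stability, had the most negative difference, at -1.84, with log2 signals of -2.94, -1.54 and -3.61 against -4.22, -3.97 and -5.43. Zfp36l3, the TTP relative of rodent placenta, was well above background on all P38α+/- and no P38α-/- arrays. On the log2 signal used here it was at least 1.89-fold lower in P38α-/- (adjusted p = 0.201 by limma), but other processing gave less, with fitted log2 differences of -0.33 under quantile normalization, -0.36 with normexp and -0.04 in the authors' table. For this bound the P38α+/- mean was compared with the lowest detected signal of each P38α-/- array, or with the probe's own signal if higher. Zfp36l3 met the filter of the test through the P38α+/- arrays alone, so its p-value is not support for a difference.

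Deadenylation, the step that TTP starts, is carried out by CCR4-NOT. In its list 19 of 21 genes were tested, with 2 lower and 1 higher without overlap (1 with an unadjusted p of at most 0.05 by limma) and a median of -0.18. Cnot8, a catalytic subunit, had log2 signals of -1.86, -1.62 and -1.84 in P38α+/- and -1.12, -0.73 and -1.05 in P38α-/-. All 3 P38α-/- arrays were higher (log2 difference 0.81, 95% interval 0.39 to 1.23, adjusted p = 0.104 by limma). Cnot4 and Cnot6, a ubiquitin ligase and another catalytic subunit, differed by -0.40 and -0.30, and both signs turned with the percentile of all probes.

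For decapping and decay from the 5′ end, 20 of 21 genes were tested, with 6 lower and 1 higher without overlap (4 with an unadjusted p of at most 0.05 by limma) and a median of -0.11. The decapping enhancer Edc3 differed by 0.43, the decapping enzyme Dcp2 by -0.71 and the exonuclease Xrn1 by -0.48. Dcp2 turned sign under quantile normalization and in the authors' table, and Xrn1 with the percentile of all probes. Dcp2 was well above background on only 2 P38α-/- arrays. It met the filter of the test through the P38α+/- arrays alone, so its lack of overlap is not support for a difference. For the exosome and SKI complex, which degrade from the 3′ end, 16 of 17 genes were tested and 1 did not overlap, Skic8 with a difference of 0.22 (none reached an unadjusted p of 0.05 by limma). The median was -0.09. Of the 12 stress granule genes, all tested, Usp10 differed by 0.48, Fmr1 by -0.65 and Caprin1 by -0.27, each without overlap, Caprin1 with the sign turned under the percentile of all probes, and the median was -0.08 (2 with an unadjusted p of at most 0.05 by limma).

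The kinase axis itself had 6 of 7 genes tested, with 3 lower and 1 higher without overlap and a median of -0.25 (3 with an unadjusted p of at most 0.05 by limma, none called). The higher gene was Mapk14. For Mapkapk2, which encodes MK2, the genotypes overlapped (log2 difference -0.36, 95% interval -0.99 to 0.27, adjusted p = 0.471 by limma). Mapkapk3 encodes MK3, the close relative of MK2. Its log2 signal was -2.67, -1.33 and -3.01 in P38α+/- and -3.63, -3.59 and -4.13 in P38α-/- (log2 difference -1.45, 95% interval -2.53 to -0.37, adjusted p = 0.158 by limma). Ywhaz, a 14-3-3 protein of the kind that holds phosphorylated TTP, differed by -0.92 (adjusted p = 0.195 by limma). The arrays of highest and lowest Mapkapk3 signal were those of highest and lowest summed neutrophil markers.

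Transcripts known for AU-rich elements spread the most. Of 40 such genes 19 were tested. Another 8 were at background on every array, among them Il6, Il2, Csf2 and Ptgs2. Of the 19, 7 were lower and 2 higher in P38α-/- without overlap, 8 had an unadjusted p of at most 0.05 by limma, beside 19.8%, 7.39% and 20.0% of all tested genes, and the lowest adjusted p was 0.0955. Their median of -0.22 stood close to the -0.14 of all tested genes, and it was above 0 under quantile normalization (0.07) and in the authors' table (0.18). Only 11 genes of the list were well above background on all 6 arrays. Of the 7 lower genes, Tnf, Fos, Bcl2, Nr4a1 and Nfkbiz met the filter of the test through the P38α+/- arrays alone. Each of these also had an unadjusted p of at most 0.05 by limma, so neither count is support for a difference.

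**Figure D5:**
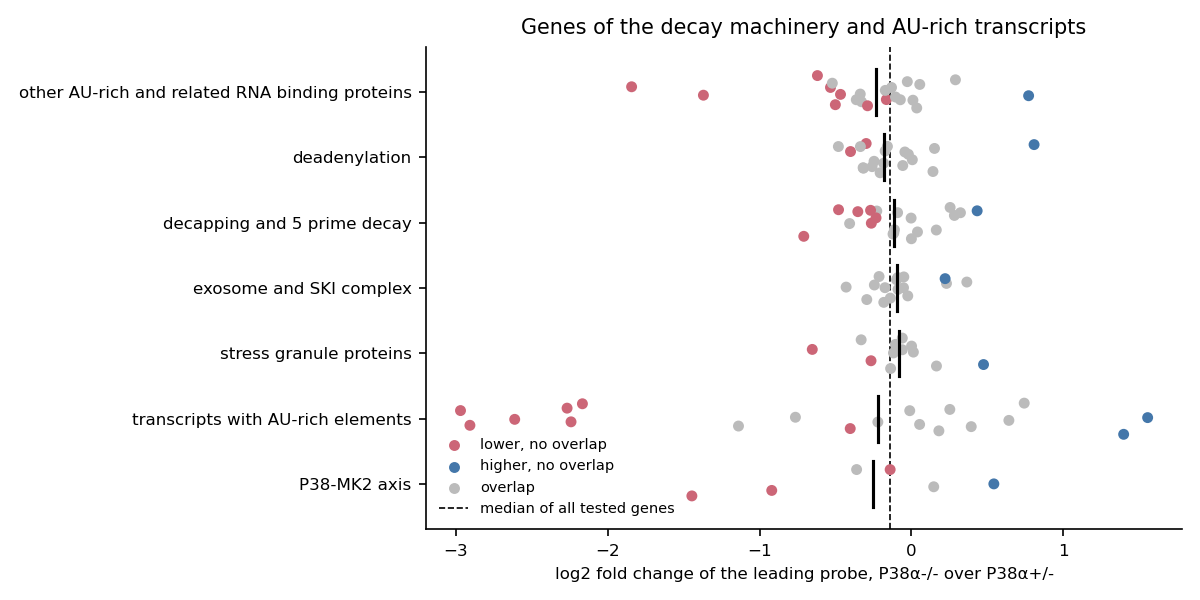
Log2 difference of the leading probe of each tested gene in 7 lists (points, spread vertically at random; short vertical lines: list medians; dashed line: median of all tested genes at -0.14). List medians lie at most 0.11 from the dashed line, and the AU-rich transcripts reach from -2.97 to 1.56. The points of Bcl2, Tnf and Zfp36l3 are fitted against background on the P38α-/- arrays. Fos, Nr4a1, Nfkbiz, Notch1, Csf1, Pim3, Dcp2 and Exosc3 were well above background on only part of the P38α-/- arrays.

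Fos, an early response transcription factor, had the most negative value. Its log2 signal was -2.04, -1.25 and -3.96 in P38α+/- and -4.62, -4.79 and -6.74 in P38α-/- (log2 difference -2.97, 95% interval -5.00 to -0.94, adjusted p = 0.146 by limma). Fos was well above background on all P38α+/- arrays but on only 2 P38α-/- arrays. The size of its difference thus rests in part on a signal near background. Its partner Jun went the other way, with log2 signals of 0.72, 1.49 and -0.83 against 2.39, 2.04 and 1.62 (log2 difference 1.56, 95% interval 0.16 to 2.96, adjusted p = 0.205 by limma). P38α+/- replicate 3 was the lowest of its group for both. Without that array the log2 difference was 0.91 for Jun and -3.74 for Fos, without P38α+/- replicate 2 it was 2.07 and -2.39, and without P38α-/- replicate 3 that of Fos was -2.29. With normexp that of Fos was -1.60.

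Bcl2, a survival gene, was well above background on all P38α+/- arrays, at -4.09, -4.42 and -6.18, and on no P38α-/- array. On the log2 signal used here it was at least 2.51-fold lower there (adjusted p = 0.101 by limma, in a range of 0.000271 to 0.825 over the alternatives). With normexp background correction the fitted log2 difference was -0.66, less than this bound. It passed with the percentile of all probes, with array weights and without P38α+/- replicate 3. Bcl2 met the filter of the test through the P38α+/- arrays alone, so these passes and p-values are not support for a difference. Tnf, a classic TTP target named here after its values were seen, had log2 signals of -5.20, -4.45 and -6.25 against -7.09, -7.00 and -8.60 (adjusted p = 0.135 by limma). It was at background on all P38α-/- arrays and, on the log2 signal used here, at least 1.89-fold lower there. The fitted log2 difference was -0.51 with normexp, less than this bound. Tnf also met the filter of the test through the P38α+/- arrays alone. In Fos, Bcl2 and Tnf, as in the summed neutrophil markers, P38α+/- replicate 3 was the lowest of the P38α+/- arrays. For Fos and the neutrophil markers P38α-/- replicate 3 was the lowest of all, though Fos was well above background on only 2 P38α-/- arrays. For Bcl2 and Tnf the P38α-/- arrays, at background, have no order.

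The 4 other genes with a window shown above did not share a direction. Ier3, an early response gene, was higher in P38α-/- on all arrays, with log2 signals of -4.39, -4.03 and -3.05 in P38α+/- and -2.81, -2.50 and -1.96 in P38α-/- (log2 difference 1.40, 95% interval 0.45 to 2.35, adjusted p = 0.145 by limma). Dusp1, a phosphatase that inactivates P38, lay lower without overlap, with log2 signals of -1.29, -1.14 and -1.55 against -1.57, -1.89 and -1.72 (log2 difference -0.40, adjusted p = 0.26 by limma). For Pim3 and for the Ccne1 probe shown, the genotypes overlapped and the log2 differences were -0.01 and -0.21.

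The motif was then looked for in all probes. The nonamer TTATTTATT was in 80 of the array's probes (0.144%). Of these, 28 were tested and had a value on all 6 arrays. In P38α-/-, 12 of the 28 were lower without overlap (42.9%) and 3 higher, against 20.9% and 6.90% of all 18314 such probes, and their median log2 difference was -0.26 against -0.16. None of the 28 was called by limma. For the core TATTTAT, in 1.03% of probes, the 207 tested probes were lower without overlap in 20.8% and had a median of -0.12. For ATTTA, in 7.71% of probes, the shares were 21.5% of 1343 probes with a median of -0.16. These sets are nested. The nonamer in the opposite sense, AATAAATAA, was held by 55 tested probes, 25.5% of them lower, with a median of -0.20. Probes with the nonamer had 61.4% A and T on average, against 56.4% over all, and of the 6844 probes with 60% to under 70% A and T, 23.8% were lower without overlap. These shares are descriptions without a test. A probe covers only 60 bases of a message, and the motif set was chosen with the data in view.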

How the data were processed

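The authors deposited the intensity of every spot of 6 one-colour Agilent arrays, as the scanner software (Agilent Feature Extraction 10.7.3.1, from the file headers) wrote it, with background subtracted within each array and no normalization between arrays. They also deposited a normalized table of intensities, used as an alternative. Its column for P38α-/- replicate 2 followed that array's scanner signal less closely than the other columns did (Spearman correlation 0.898 against 1). Arrays were grouped by their labels, and 0 columns were left unassigned.

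Control spots and outlier spots were left out, spots of 1 probe averaged, and log2 signals scaled as the report states. No probe was saturated. Genes were named by accession (27509 probes), current symbol (3549) or synonym (404) in RefSeq, and otherwise by the file (24219). Genotypes were compared with limma 3.58.1 in R 4.3.3 over 18547 probes, and single probes by exact permutation. The precision is limited by 3 arrays per genotype. The fit was tested on simulated data.

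The members and lists were chosen with earlier results of these data known. 1 marker gene is not reported here. The genes named by rule were all members, and in each list the called genes and the 2 largest differences in each direction without overlap. Named outside this rule were Mapkapk2, Tnf, the other genes with a window shown, and genes given only for their signal against background. For Zfp36l1 and Zfp36l2 the 3 most alike genes were added. Same-numbered arrays of the genotypes deviated together (r = 0.537, 0.31 and 0.423; at most 0.184 for other pairs), and the design text of the series speaks of pairs of mice, so the numbers were taken to pair the mice. The unpaired fit follows the study's methods. Alternatives were other scalings, quantile normalization, normexp background, other filters on dim probes, the authors' table, replicate and slide blocks, the methods' t-test, array weights and each array left out.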

Additional observations from a re-analysis of the deposited data

How the results depend on the processing

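No member was called under any of the 111 fits that vary the processing of the 7 tested members, and 98 of them kept the sign. With the 75th percentile of all probes, which moved the median tested probe from -0.16 to 0.32, the log2 difference was 0.45 for Elavl1, 0.19 for Khsrp, 0.14 for Hnrnpd and 0.32 for Tial1, and among the list genes 0.081 for Cnot4, 0.18 for Cnot6, 0.002 for Xrn1 and 0.22 for Caprin1. Under that setting limma called 858 of all 18547 tested probes, and among the genes named Auh, Cnot8, Jun, Ier3, Fos, Bcl2 and Tnf passed. Of these, Fos, Bcl2 and Tnf met the filter of the test through the P38α+/- arrays alone. The genes had been named for their large differences, so the passes are not a result about the lists. Quantile normalization gave 0.29 for Tia1 and 0.17 for Dcp2. The authors' table gave 0.016 for Elavl1, 0.27 for Tia1 and 0.25 for Dcp2. Array weights gave -0.019 for Zfp36l1 and 0.046 for Elavl1. Leaving out 1 array at a time gave -0.065 to 0.073 for Zfp36l1 and -0.12 to 0.11 for Elavl1, with the sign turned to -0.065 for Zfp36l1 and 0.014 for Elavl1 without P38α+/- replicate 3, to -0.049 for Zfp36l1 without P38α-/- replicate 2 and to 0.11 for Elavl1 without P38α-/- replicate 1. The cause was not tested. Signal over background was the limit for Zfp36, for 2 of the 3 Tia1 probes and for the AU-rich transcripts that could not be tested. Zfp36, at background in both genotypes, was given no fold and left out of the alternatives, and Tia1 had no value with the filter for probes well above background on all 6 arrays.

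Over all probes limma called 30 (23 higher). The count was 858 (485 higher) with the percentile of all probes, 12 with quantile normalization, 18 with normexp, 67 with the stricter filter, 11 with the authors' table, 549 (176 higher) with array weights and 2 by the methods' t-test. With the replicate number as a block, for mice taken as paired, it was 69 (20 higher), and the block changed no member's call. It was 0 without a filter on dim probes, where limma gave 3188 probes an unadjusted p under 0.05, and 0 with the slide as a block, where it gave 2515. Leaving out 1 array gave 0 to 317 probes, with 317 without P38α+/- replicate 3 and 0 without any other, where limma gave 2511 to 3456 probes an unadjusted p under 0.05. The slide block in effect drops P38α-/- replicate 3, the only array of the second slide.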
